A study of Rattus norvegicus with 21 samples.

Results

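The 8 genes chosen here encode enzymes that supply the reduced cofactor NADPH or help to feed its main source, the pentose phosphate pathway (Pgd, Pgls, Rpia, Tkt, Taldo1, Me1 and Idh1), together with the quinone reductase Nqo1. They were found by gene symbol in a table of 32750 mRNA rows. A row was found for 7 of the 8, and all 7 were among the 14410 rows abundant enough to test; Pgd was not analysed here. The cells were INS-1 832/13, an established rat insulinoma line that secretes insulin. One group of 5 libraries came from cells exposed to 1 µM inorganic arsenic (iAs) for 24 h, and the other, of 4 libraries, from untreated cells. All cells had been seeded 24 h before exposure, and no label mentions a vehicle. Polyadenylated RNA was sequenced, and the values are read counts that the authors divided by DESeq2 normalization factors, called normalized counts below. Whether the replicates were grown as separate cultures is not labelled. The p-values set a difference between the groups against the spread among these libraries only, and that spread may be technical.

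NADPH is the electron donor for reduction of glutathione and thioredoxin, for quinone and carbonyl reductases and for synthesis of fatty acids and sterols. The oxidative branch of the pentose phosphate pathway makes it from glucose 6-phosphate, and the non-oxidative branch returns the remaining sugar phosphates to glycolysis or supplies ribose for nucleotides. Malic enzyme and the cytosolic isocitrate dehydrogenase are further cytosolic sources, and in beta cells they have been studied as links between glucose metabolism and insulin secretion. Several of these genes, and Nqo1 above all, are textbook targets of NRF2, which turns on genes against oxidants.

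Each library held 51009800 to 55869159 normalized counts in all. Taking the median of the low nonzero values of a library as 1 read, these totals stand for roughly 4.5e+07 to 6.6e+07 reads. This is an estimate only, since the value of 1 read varied within a library. Ins1 made up 2.32% to 3.90% of each total. One label gives the tissue as liver, but Alb was at 0 in the 4 untreated libraries and at most 2.01 in those labelled iAs, and Cyp2e1 was at 0 in all 9; the 8 hepatocyte genes listed summed to 4373 to 5645 in iAs and 4798 to 5405 in untreated libraries, mostly from Hnf4a, and Fgb was called lower in iAs (mean 252 against 637, limma adjusted p = 5.0e-05). Summed levels of other marker lists were 52201 to 81095 normalized counts in iAs and 80255 to 133472 in untreated libraries for other islet cells (5 genes, nearly all Gcg). They were 12051 to 15357 against 11017 to 12016 for acinar and duct genes (8 genes, nearly all Krt7, with Cela1, Cpa1, Cpb1 and Prss1 at 0), and 228 to 377 against 421 to 539 for fibroblast, endothelial and immune genes (7 genes with a row, Ptprc at 0). Sox9, on the acinar and duct list, was called higher in iAs (mean 445 against 84.5, limma adjusted p = 5.9e-06). The beta cell list (10 genes, mostly Ins1) summed to 1.44e+06 to 1.97e+06 in iAs and 1.81e+06 to 2.31e+06 in untreated libraries. On it, Slc2a2 was called higher in iAs (limma adjusted p = 0.0112) and Nkx6-1 lower (0.0041). On the other lists, Gcg (0.0084), Cd74 (0.0121) and Col1a1 (0.0441) were called lower and Cd68 (0.04997) higher. The part of these markers in the results was not tested. Arsenic is known to induce Hmox1, the gene of heme oxygenase 1, yet Hmox1 had a mean of 1739 ± 465 normalized counts under the label iAs (SD, n = 5) and of 14132 ± 1727 under the label untreated (SD, n = 4). This runs against the labels, and every direction below rests on them. Sequencing lane 4 held every iAs library and lane 3 every untreated one, and the effect of lane cannot be told apart from that of the label. The library codes have 3 endings: 5 libraries end in 52, and the others form 2 pairs of 1 iAs and 1 untreated library. One pair, iAs replicate 2 and untreated replicate 4, stood apart in both groups, for example at 10083 and 9311 normalized counts of the folate enzyme gene Mthfd2, against 4198 to 5051 in the other iAs and 3731 to 4742 in the other untreated libraries.

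Of the 7 measured genes, 3 were higher (Pgls, Rpia and Tkt) and 3 lower (Me1, Idh1 and Nqo1) in the libraries labelled iAs, and Taldo1 was not called (limma on log2(value + 1), Benjamini-Hochberg adjusted p under 0.05 over all genes tested). In this comparison 30.0% of all genes tested were called, 15.1% higher and 14.9% lower. For the same 6 genes the libraries of the groups did not overlap, as for 25.9% of the genes tested overall; this uses the values behind the calls and adds no evidence. Among these 7, the 3 called genes of the pentose phosphate pathway were thus higher, and Me1, Idh1 and the quinone reductase gene were lower. This split describes the chosen genes only. Of 8 other genes of that pathway, 2 were called higher and 2 lower, and the cytosolic folate enzyme gene Mthfd1 was called higher (0.24 in log2). These counts stayed at 3 and 3 in each of the 22 alternatives tried, including one without iAs replicate 2 and untreated replicate 4 together. In bulk libraries, a lower level in each cell and fewer cells that express a gene cannot be told apart.

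**Figure D1:**
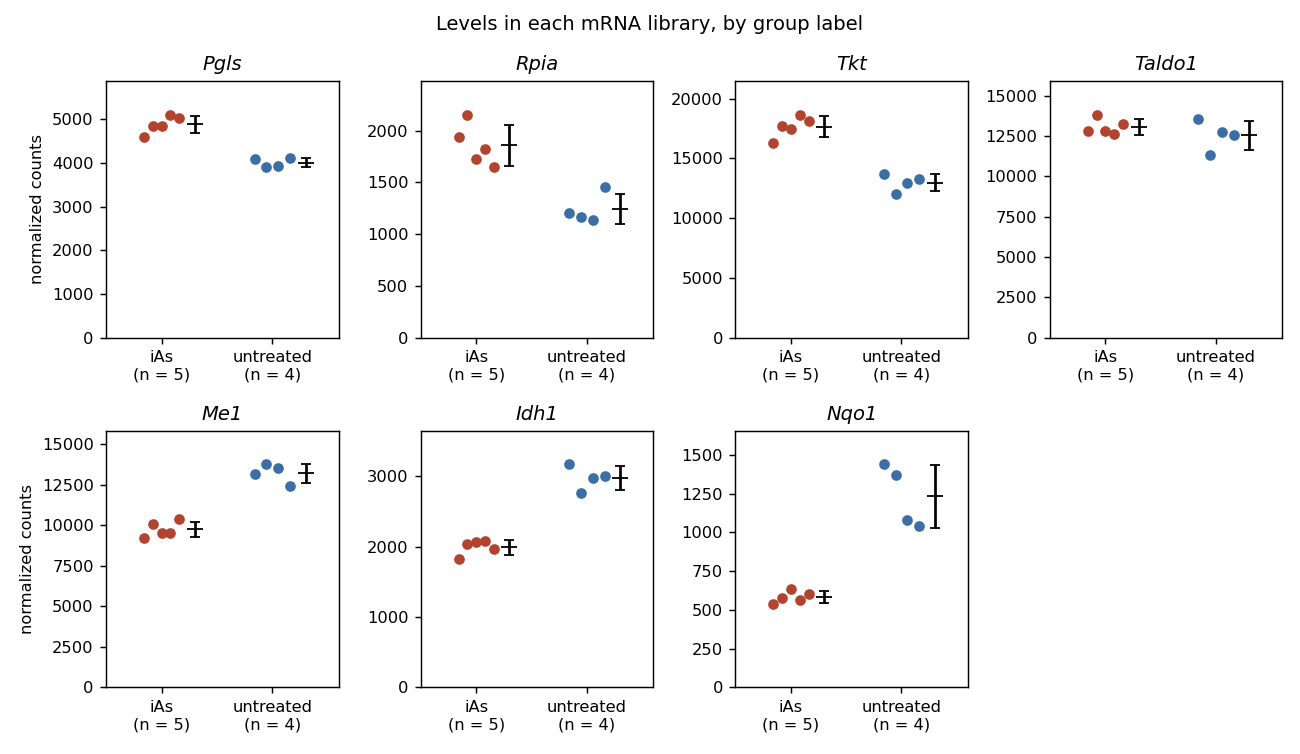
Normalized counts (vertical axes, from 0) of the 7 genes in each mRNA library, with the 5 libraries labelled iAs on the left and the 4 labelled untreated on the right of each panel; bars are the mean ± SD. The groups are apart in 6 panels and overlap for Taldo1.

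The oxidative branch is represented by Pgls (ENSRNOG00000018326), the gene of 6-phosphogluconolactonase, which opens the lactone made in the first step. Pgls had 4591, 4851, 4833, 5106 and 5028 normalized counts in iAs replicates 1 to 5, against 4080.1, 3910.2, 3921 and 4117 in untreated replicates 1 to 4. All 5 iAs libraries were above all 4 untreated ones, the lowest iAs library being at 4591 and the highest untreated one at 4117. The means were 4882 ± 200.0 (SD, n = 5) in iAs and 4007 ± 107 (SD, n = 4) in untreated libraries, 21.8% higher. The difference in log2 was 0.28 with an SE of 0.05 (limma adjusted p = 0.0011). This was the smallest difference among the 6 called genes.

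H6pd, which encodes a hexose phosphate dehydrogenase of the endoplasmic reticulum, had 490.0 to 621 normalized counts in iAs and 426 to 648 in untreated libraries. The ranges overlapped, and H6pd was not called (log2 difference 0.06, limma adjusted p = 0.76).

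In the non-oxidative branch, Rpia (ENSRNOG00000005576) encodes ribose phosphate isomerase, which makes the ribose phosphate used for nucleotides. Rpia had 1937, 2156, 1725, 1820 and 1653 normalized counts in iAs replicates 1 to 5, against 1203, 1171, 1141 and 1458 in untreated replicates 1 to 4. The groups did not overlap, and iAs replicate 2 and untreated replicate 4 were the highest of their groups. The means were 1858 ± 198 (SD, n = 5) and 1243 ± 146 (SD, n = 4), 49.5% higher in iAs. The difference in log2 was 0.58 with an SE of 0.09 (limma adjusted p = 7.7e-04). Without these 2 libraries it was 0.60 (adjusted p = 3.5e-04).

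Tkt (ENSRNOG00000016064) encodes transketolase, the thiamine-dependent enzyme that joins the pathway to glycolysis. Tkt had 16297, 17715, 17441, 18679 and 18116 normalized counts in iAs replicates 1 to 5, against 13698, 11993, 12971 and 13265 in untreated replicates 1 to 4. The lowest iAs library was well above the highest untreated one. The means were 17650 ± 888 (SD, n = 5) and 12982 ± 723 (SD, n = 4), 36.0% higher in iAs. In log2 the difference was 0.44 with an SE of 0.06 (limma adjusted p = 1.4e-04).

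Taldo1 (ENSRNOG00000018367) encodes transaldolase, which works beside transketolase in the same branch. Taldo1 had 12831, 13825, 12833, 12591 and 13207 normalized counts in iAs replicates 1 to 5, against 13551, 11332, 12717 and 12538 in untreated replicates 1 to 4. The groups overlapped, and untreated replicates 1 and 2 were its highest and lowest untreated values. The log2 difference was 0.06 (SE 0.06, 95% interval -0.06 to 0.18, limma adjusted p = 0.45), and it was -0.028 among the 5 libraries whose code ends in 52.

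Me1 (ENSRNOG00000009715) encodes cytosolic malic enzyme, which turns malate into pyruvate and makes NADPH. Me1 had 9235, 10055, 9548, 9552 and 10362 normalized counts in iAs replicates 1 to 5, against 13152, 13765, 13510 and 12423 in untreated replicates 1 to 4. All iAs libraries lay below all untreated ones. The means were 9750.4 ± 451 (SD, n = 5) and 13213 ± 583 (SD, n = 4). Me1 thus fell by 26.2% in iAs. On the log2 scale Me1 differed by -0.44 with an SE of 0.05 (limma adjusted p = 9.3e-05).

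Idh1 (ENSRNOG00000015020) encodes the isocitrate dehydrogenase of cytosol and peroxisomes, which makes NADPH while turning isocitrate into alpha-ketoglutarate. Idh1 had 1819, 2036, 2066, 2080.4 and 1966 normalized counts in iAs replicates 1 to 5, against 3172, 2762, 2973 and 2999 in untreated replicates 1 to 4. The gap between the groups was wider than the range within either. The means were 1993 ± 107 (SD, n = 5) and 2977 ± 168 (SD, n = 4). Idh1 fell by 33.0% in iAs. On the log2 scale Idh1 differed by -0.58 with an SE of 0.06 (limma adjusted p = 5.0e-05).

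Nqo1 (ENSRNOG00000012772) encodes NAD(P)H quinone dehydrogenase, which spends NADH or NADPH to reduce quinones and does not make it. Nqo1 had 536, 579, 633, 565 and 602 normalized counts in iAs replicates 1 to 5, against 1440.1, 1371, 1081 and 1039 in untreated replicates 1 to 4. The untreated libraries fell into a higher pair (replicates 1 and 2) and a lower pair, both above every iAs library. The means were 583 ± 36.9 (SD, n = 5) and 1233 ± 202 (SD, n = 4). Nqo1 fell by 52.7% in iAs. The difference in log2 was -1.07 with an SE of 0.11 (limma adjusted p = 3.4e-05), which in size exceeded those of the other 6 genes. Exact two-sided permutation tests over the 9 libraries gave p = 0.0159 for each of the 6 called genes, the smallest value that 5 against 4 libraries allow (adjusted p = 0.0185 over the 7 genes), and p = 0.33 for Taldo1.

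The RefSeq promoters of the 3 genes that fell are shown because NRF2 binds the antioxidant response element, whose core was searched as TGACNNNGC on both strands. Each window holds 250 bases before and 50 after the start used in the table (build GRCr8, written 5′ to 3′ on the strand of the gene), and capitals mark a match. Entries were found for 7 of the 8 genes, Pgls being without one. The windows are chr8:96540195-96540494 (minus strand) for Me1, chr9:74049425-74049724 (minus strand) for Idh1 and chr19:52220218-52220517 (minus strand) for Nqo1.
Me1: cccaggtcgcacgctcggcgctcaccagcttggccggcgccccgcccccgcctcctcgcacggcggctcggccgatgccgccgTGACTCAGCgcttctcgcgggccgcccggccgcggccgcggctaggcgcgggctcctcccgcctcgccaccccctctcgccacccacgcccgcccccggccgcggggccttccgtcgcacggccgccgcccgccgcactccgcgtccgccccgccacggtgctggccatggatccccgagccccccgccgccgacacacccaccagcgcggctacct
Idh1: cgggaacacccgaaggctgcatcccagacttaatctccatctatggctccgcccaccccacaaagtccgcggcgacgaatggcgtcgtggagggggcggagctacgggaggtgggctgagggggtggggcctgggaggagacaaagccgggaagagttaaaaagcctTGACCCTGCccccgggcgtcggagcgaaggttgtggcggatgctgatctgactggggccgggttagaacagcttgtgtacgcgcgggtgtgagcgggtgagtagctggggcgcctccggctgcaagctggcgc
Nqo1: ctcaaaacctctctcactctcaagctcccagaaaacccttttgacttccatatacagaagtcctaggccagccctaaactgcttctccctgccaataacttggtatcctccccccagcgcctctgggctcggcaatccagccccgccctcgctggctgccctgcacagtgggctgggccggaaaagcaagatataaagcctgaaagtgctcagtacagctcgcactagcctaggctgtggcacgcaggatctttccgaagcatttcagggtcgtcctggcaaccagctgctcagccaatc
The match in Me1 begins 167 bases before the start and also spells TGACTCA, the AP-1 site, so both motifs overlap there. The match in Idh1 begins 83 bases before the start. These letters were not in the windows of Nqo1, Tkt, Taldo1, Rpia or Pgd. Bases outside the windows were not searched, so a window without a match does not show that a gene lacks the element. Among 33469 RefSeq promoters of the same length, 12.1% hold TGACNNNGC on either strand and 4.63% hold TGACTCA. A match describes the letters and is not evidence of binding.

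The ratio of 2 transcripts as abundant as these within a library hardly depends on how libraries are scaled. The 7 genes were therefore also compared in pairs by their log2 ratio, taken from log2(value + 1) (21 pairs, exact permutation test over libraries, adjusted over the pairs). The ratio differed between the groups in 19 pairs, with adjusted p of 0.0185 in 18 of them, whose unadjusted p of 0.0159 was the smallest that the 9 libraries allow. For every pair of a gene that rose (Pgls, Rpia or Tkt) and a gene that fell (Me1, Idh1 or Nqo1), this outcome was fixed in advance. The groups did not overlap for either gene, so these pairs add no evidence. The log2 ratio of Tkt to Taldo1 was 0.43 ± 0.09 (SD, n = 5) in iAs and 0.05 ± 0.03 (SD, n = 4) in untreated libraries, a difference of 0.38, and that of Rpia to Taldo1 differed by 0.52. Within the non-oxidative branch, Taldo1 thus changed unequally from Tkt and from Rpia. Nqo1 was lower relative to Idh1 as well as to Me1, since the log2 ratios of Idh1 to Nqo1 and of Me1 to Nqo1 were higher in iAs by 0.49 and 0.63. Rpia was higher relative to Pgls by 0.30 (adjusted p = 0.0351), with overlap between the groups. The ratios of Tkt to Rpia (-0.14, exact permutation adjusted p = 0.27) and of Me1 to Idh1 (0.14, exact permutation adjusted p = 0.0833) did not pass the test, which does not show that these genes changed alike.

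Another 4 pairs, also chosen with values known, set a gene against a related enzyme. Idh1 was lower relative to Idh2, the mitochondrial form, by 0.61 on the log2 scale, with mean log2 ratios of -2.58 ± 0.10 (SD, n = 5) in iAs and -1.98 ± 0.14 (SD, n = 4) in untreated libraries. Me1 was lower relative to Me2 and to Me3, the mitochondrial malic enzymes, with differences of -0.52 and -0.49. None of these 3 ratios overlapped between groups (exact permutation adjusted p = 0.0212 over the 4 pairs). The ratio of Nqo1 to Nqo2, whose level was too low to be tested by itself, overlapped (exact permutation adjusted p = 0.24). At so low a level this ratio depends on the 1 added to each value.

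**Figure D2:**
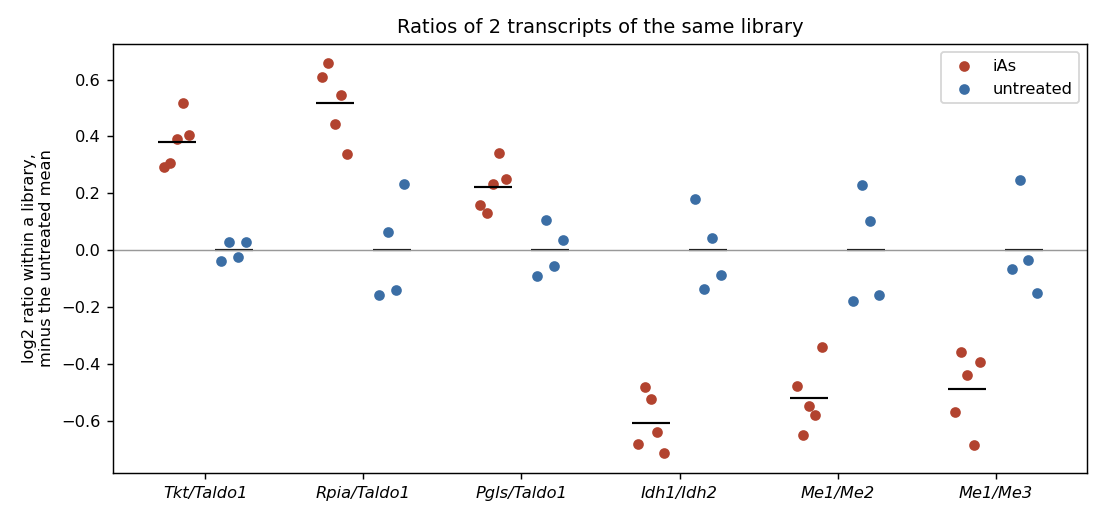
Log2 ratio of 2 transcripts within each library, minus the mean of the untreated libraries (vertical axis), for 6 pairs; points are libraries, those labelled iAs on the left of each pair, and lines are means. The iAs libraries lie above the untreated ones for Tkt/Taldo1, Rpia/Taldo1 and Pgls/Taldo1 and below them for Idh1/Idh2, Me1/Me2 and Me1/Me3.

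The other genes around NADPH were taken from 9 lists, in which 80 genes beside the 7 were tested. Of these, 17 were higher and 23 lower in iAs, with a median log2 difference of -0.03 against -0.0007 over all genes tested. Over all genes tested, 15.1% were called higher and 14.9% lower. The counts of each list below stand beside that share, and no list was tested as a set. The rises among the 80 numbered 11 without iAs replicate 2 and untreated replicate 4 and 10 among the libraries ending in 52 alone. Among 8 other genes of the pentose phosphate pathway, 2 rose, 2 fell and 4 were not called (median -0.09). Prps2 (0.33, adjusted p = 0.0035) and Prps1 (0.24, adjusted p = 0.0252), whose products charge ribose phosphate for nucleotide synthesis, rose. Shpk, a sedoheptulose kinase (-0.41, adjusted p = 0.0011), and the ribokinase gene Rbks (-0.50, adjusted p = 0.0074) fell. Prps1 lost its call without iAs replicate 3 or untreated replicates 2 or 4, which left 1 rise, and without iAs replicate 2 and untreated replicate 4 together (adjusted p = 0.0824). Its log2 difference among the libraries ending in 52 was 0.09 (adjusted p = 0.37).

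Among 9 mitochondrial and folate genes, 3 rose and 1 fell (median 0.08). Mthfd1l, a mitochondrial folate synthetase gene, had 1937 to 2393 normalized counts in iAs and 1170 to 1802 in untreated libraries (log2 difference 0.63, limma adjusted p = 0.0019). Glud1, glutamate dehydrogenase, rose by 0.28 in log2, and the cytosolic folate enzyme gene Mthfd1 by 0.24. Nnt, the mitochondrial transhydrogenase that makes NADPH from NADH, fell to 10696 ± 869 (SD, n = 5) in iAs, against 12728 ± 1264 (SD, n = 4), a log2 difference of -0.25. The call of Nnt was lost without each of iAs replicates 1, 2 and 3 and untreated replicates 1 and 3, which left no fall in the list, and that of Mthfd1 without iAs replicates 2, 3 or 5 or untreated replicates 2 or 3. Mthfd1 lost its call in 11 of the 22 alternatives, with a log2 difference of 0.11 among the libraries ending in 52 (adjusted p = 0.37). Idh2 (0.03, adjusted p = 0.74), Me2 (0.08, adjusted p = 0.49) and Me3 (0.05, adjusted p = 0.70) were not called.

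The mitochondrial NAD kinase gene Nadk2 (0.42, adjusted p = 0.0354) and Noct, whose product removes phosphate from NADP (0.50, adjusted p = 0.0010), rose among 4 genes of that kind (median 0.21), and the cytosolic kinase gene Nadk was not called (-0.08, adjusted p = 0.36). Nadk2 lost its call without iAs replicates 1 or 4 or untreated replicates 1, 3 or 4, leaving 1 rise, and in 11 of the 22 alternatives in all. Of 13 quinone and carbonyl reductase genes, 3 rose and 2 fell (median 0.06). Blvrb, a biliverdin and flavin reductase, fell to 1668 ± 38.6 (SD, n = 5) in iAs, against 3003 ± 247 (SD, n = 4), a log2 difference of -0.84 (adjusted p = 5.6e-06). Cyb5r1 fell as well (-0.53), and the aldose reductase gene Akr1b1 (0.34), Cbr4 (0.43) and Ptgr2 (0.21) rose. Cbr4 lost its call in 11 of the 22 alternatives (adjusted p up to 0.11) and Ptgr2 in 13 (up to 0.18). With 1 library left out the rises in this list numbered 1 or 2, being 1 without iAs replicates 4 or 5 or untreated replicates 2 or 3, and they numbered 0 among the libraries ending in 52 (limma, Akr1b1 at adjusted p = 0.0595).

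Of 8 genes whose products spend NADPH, 2 rose and 1 fell (median -0.01). Gsr, glutathione reductase, fell to 5970.0 ± 230 (SD, n = 5) in iAs, against 7473 ± 255 (SD, n = 4), a log2 difference of -0.32 (adjusted p = 4.1e-04). Txnrd1, thioredoxin reductase, did not pass (-0.012, adjusted p = 0.89). Nos1, a nitric oxide synthase gene, rose by 1.92 at a low level, with 124 ± 40.3 normalized counts (SD, n = 5) in iAs and 32.7 ± 14.4 (SD, n = 4) in untreated libraries, and Fasn, fatty acid synthase, by 0.23. Fasn lost its call after rescaling to equal totals (limma adjusted p = 0.0692), after quantile normalization (0.14), with a replicate block (0.0527), among the libraries ending in 52 (0.16) and without iAs replicate 2 and untreated replicate 4 together (0.0658). Of 14 genes of pyruvate and isocitrate cycling, 2 rose and 4 fell (median -0.05). Acly and Acaca, which carry citrate carbon into fatty acids, rose by 0.51 and 0.70, and the mitochondrial pyruvate carrier gene Mpc1 (-0.44), the cytosolic malate dehydrogenase gene Mdh1 (-0.28) and Slc25a11 (-0.15) were among those that fell. Mdh1 lost its call without untreated replicates 1 or 3, among the libraries ending in 52 and without iAs replicate 2 and untreated replicate 4 together (adjusted p between 0.0502 and 0.0737). Slc25a11 lost its call without iAs replicate 3 or untreated replicate 4, without iAs replicate 2 and untreated replicate 4 together, with a replicate block and among the libraries ending in 52 (-0.11), with adjusted p between 0.0537 and 0.22. The falls numbered 2 without iAs replicate 3 or untreated replicates 1, 3 or 4, and 1 without iAs replicate 2 and untreated replicate 4 together.

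**Figure D3:**
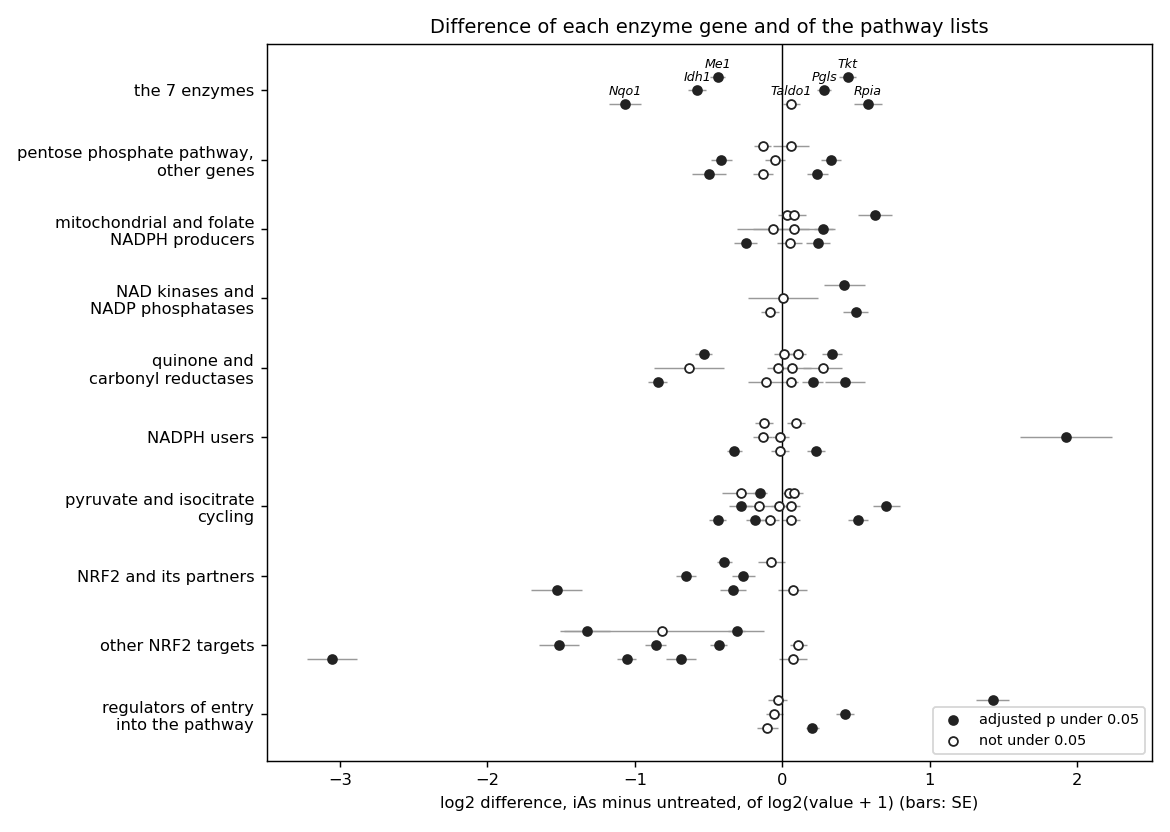
Log2 difference (iAs minus untreated, horizontal axis; bars are SE) of the 7 genes in the top row and of the genes of each list below; filled points have a limma adjusted p under 0.05. The points of NRF2 and its partners and of other NRF2 targets lie mostly left of 0, and those of the other lists on both sides.

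Nqo1, Me1 and Idh1, taken because they fell, were read beside NRF2 itself. Of the other measured genes, Pgls, Rpia and Tkt rose and Taldo1 was not called. Nfe2l2, the NRF2 gene, was not called (-0.08, adjusted p = 0.57). Of 7 genes of NRF2 and its partners, 5 fell (median -0.34): its inhibitor Keap1 (-0.39), Sqstm1 (-0.65), the small Maf genes Maff (-1.53) and Mafk (-0.34), and the repressor gene Bach1 (-0.26), whose call was lost in 5 of the 22 alternatives (adjusted p up to 0.13), among them those without iAs replicate 1 or untreated replicates 2 or 3. Of 11 other NRF2 targets, 8 fell (median -0.82), among them Hmox1 (-3.06), Osgin1 (-1.52), Gclm (-1.06) and Ftl1 (-0.86). Those not called were Txn1 (0.11, limma adjusted p = 0.19), Abcc1 (0.07, adjusted p = 0.60) and Slc7a11 (-0.82, adjusted p = 0.41). By size, the fall of Nqo1 was close to that of Gclm, and those of Me1 and Idh1 were smaller. Of the genes that act at the branch point with glycolysis, 3 of 6 rose: Pfkfb3 by 1.43, Gpi by 0.42 and the lipid regulator gene Srebf1 by 0.20 (median of the 6, 0.09). Tigar, whose product is known to steer glucose into the pentose phosphate pathway, was not called (-0.03, adjusted p = 0.76).

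Across the 9 libraries, the members most alike were Pgls and Tkt (Pearson's r = 0.99 of log2 values) and the least alike Rpia and Me1 (r = -0.93). Since the libraries fall into 2 groups, these values mostly express the difference between the groups and are given as a description. The likeness was taken over 11474 genes averaging 50 normalized counts or more. The 3 most like Nqo1 were Cish, Tubb2a and Pir (r = 0.99, 0.99 and 0.98; Spearman's rho = 0.97, 0.93 and 0.93). The 3 most like Tkt were Fabp5, Serbp1 and Rpl7 (r = 0.99 each; rho = 0.93, 0.93 and 0.98), of which Rpl7 has near-identical copies that could share its reads. The 3 most like Me1 were Limk2, Usp19 and Zswim4 (r = 0.997, 0.994 and 0.992; rho = 0.97, 0.95 and 0.98).

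**Figure D4:**
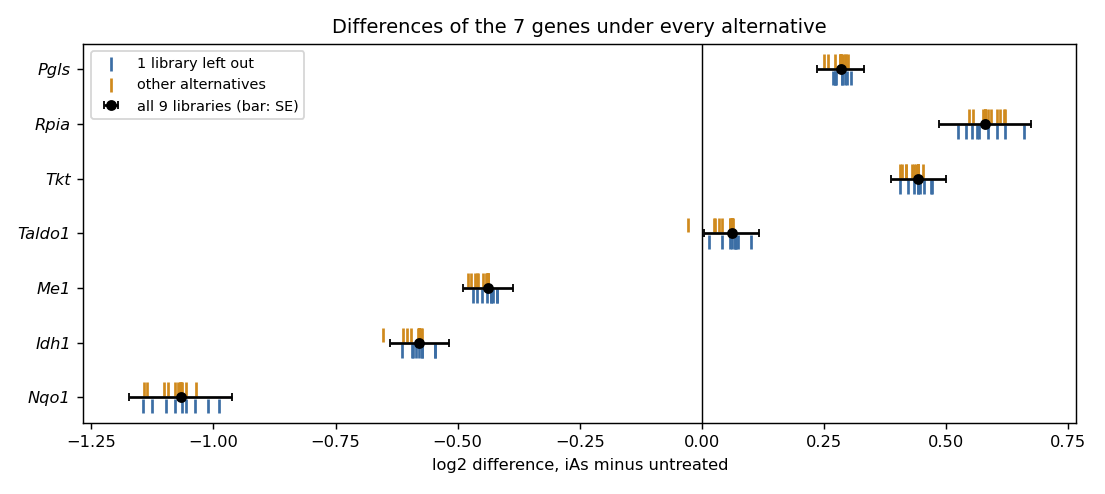
Log2 difference (iAs minus untreated, horizontal axis) of the 7 genes with all 9 libraries (points; bars are SE), with 1 library left out (blue ticks) and under the other alternatives (orange ticks). Only the ticks of Taldo1 reach both sides of 0; those of Nqo1 run from -1.14 to -0.99 and those of Tkt from 0.41 to 0.47.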

How the data were processed

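The mRNA of 5 libraries labelled iAs and 4 labelled untreated was analysed. The deposited signal values are read counts per gene that the authors divided by DESeq2 normalization factors, per the labels; the submitters' processing notes name STAR, Salmon, DESeq2 and build rn6 without roles, and strand use is not given in the sources used here, so reads of overlapping antisense genes cannot be told apart. The value of 1 read varied within a library (57.9% to 79.5% of low values lay within 0.05 reads of a whole number), so no count test was run. Columns were matched to samples by the code in the description; the title gives another code for 4 libraries, within the same group. Values were tested as log2(value + 1) with limma 3.58.1 (trend) in R 4.3.3 where the row averaged 10 or more (14410 of 32750 rows), and p-values were adjusted by Benjamini-Hochberg over all of them at 0.05. A difference on this scale understates changes of low genes. Levels were not compared between genes, for lack of transcript lengths. Single values and ratios were tested by exact permutation (SciPy 1.17.1, 126 arrangements).

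The genes, lists and tests were chosen with earlier results of these data known. Named genes were all members, up to 4 called genes per list by adjusted p, a fixed set and the 3 genes most like Nqo1, Tkt and Me1; unnamed loci were left out of the last. Ptgr2, Slc25a11, Bach1, Tigar, Mthfd2, Slc7a11, Aldh1l2, Txn1 and Abcc1 were added after values were seen. So were the ratio pairs and the alternative without iAs replicate 2 and untreated replicate 4. Mlxipl and Srxn1 were not analysed here, and some genes counted in the lists are not reported by name.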

Additional observations from a re-analysis of the deposited data

Results flagged for a closer look

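Single libraries stood far from the others of their group in 7 of 92 groups checked (46 genes in 2 groups each), where chance alone gives about 1 in 20; the 7 enzyme genes had none. Untreated replicate 4 accounts for 4 of them: Prps2 at 1572 normalized counts (others 1303 to 1333), Maff at 1817 (1172 to 1228), Keap1 at 4742 (5044 to 5093) and Txnrd1 at 10195 (11659 to 11866). The others were Maff in iAs replicate 2 at 669 (364 to 450), Gsr in untreated replicate 1 at 7853 (7303 to 7390) and Me3 in untreated replicate 2 at 610.2 (724 to 728). Untreated replicate 4 and iAs replicate 2 share the ending of their library code.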

How the results depend on the processing

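The calls of Pgls, Rpia, Tkt, Me1, Idh1 and Nqo1 and their directions held in all 22 alternatives (pseudocounts, filters, rescalings, sample weights, blocks, code endings and 1 library left out), with adjusted p of at most 0.0216 (Pgls among libraries ending in 52). Taldo1 was not called in any and changed sign among libraries ending in 52 (-0.028). Same-numbered libraries of the groups did not deviate together (correlations of 0.031, -0.037, 0.0077 and -0.041), and the labels give no pairing. A replicate block, in which iAs replicate 5 has no partner, gave 1351 genes higher and 1410 lower, against 2181 and 2140, and 11 rises among the pathway genes, against 17. These numbered 10 among libraries ending in 52 and 11 without iAs replicate 2 and untreated replicate 4 together. Rescaling to equal totals changed the split to 1787 higher and 2528 lower. Of 39 other named genes, 26 kept their side of the threshold and direction throughout and 8 lost a call under at least 1 alternative. Uncalled genes that changed sign were H6pd (-0.0481 without untreated replicate 4, from -0.0481 to 0.153 with 1 library left out, and -0.0380 without iAs replicate 2 and untreated replicate 4 together), Idh2 (-0.00435 with equal totals), Me2 (-0.028 among libraries ending in 52), Me3 (-0.0130 without untreated replicate 2, range with 1 library left out -0.0130 to 0.0720) and Txnrd1 (0.00420 without iAs replicate 1, 0.00695 and 0.00831 without untreated replicates 1 and 2, range -0.0647 to 0.00831). Counting error was not compared with the spread between libraries, and it weighs more for low genes such as Nos1.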

Other observations

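The pair of libraries that stood apart, iAs replicate 2 and untreated replicate 4, was high in mitochondrial folate genes. These libraries had 10083 (iAs) and 9311 (untreated) normalized counts of Mthfd2, which were 2.15 and 2.19 times the mean of the other libraries of their group, and 246 and 249.6 of Aldh1l2, the gene of a mitochondrial folate dehydrogenase (1.72 and 1.74 times). The cystine transporter gene Slc7a11 was at 820 (iAs) and 868 (untreated) there, against 74.7 to 138 in the other iAs and 145 to 189 in the other untreated libraries. Slc7a11 was not called over all 9 libraries (-0.82, limma adjusted p = 0.41). It was lower in iAs with a block on the ending (-0.69, adjusted p = 0.0190) and without both of them (-0.85, adjusted p = 0.0206). Mthfd2 was not called in any of these (adjusted p between 0.17 and 0.86). Of 87 genes compared, the 7 enzyme genes included, 15 were highest and 8 lowest of their group in both libraries of this pair. The share over all genes tested was not computed, so these counts are a description of the listed genes only. Among the 7 enzyme genes, Rpia alone was outermost in both, at 1.21 times the other iAs and 1.24 times the other untreated libraries. What the endings stand for is not given in the sources used here.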
